A study of Homo sapiens with 12 samples.

Results

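Small nuclear RNAs (snRNAs) were examined in the RNA-seq libraries of HK2 cells, an immortalised line of human renal proximal tubular epithelial cells. A gene was included when the annotation gave it the biotype snRNA and its level was at least 1 TPM (transcripts per 1000000, a level per transcript length) in 3 or more of the 12 libraries. This rule left 31 of 1909 snRNA genes: 13 of 148 U1 genes, 13 of 92 U2 genes, 2 of 97 U4 genes, 2 of 70 genes of the minor spliceosome, and RN7SK, the gene of 7SK RNA. There was no member among 31 U5, 1314 U6 and 156 U7 genes. The members were thus chosen by their own levels, and 13 of the 31 passed only through the libraries of 1 group, so their counts and levels are given as a description.

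The 12 libraries formed 4 groups of 3. NG cells received a control vector in 5.5 mM glucose, HG cells were kept in 50 mM glucose, si-FGF9 cells received an siRNA against fibroblast growth factor 9 (FGF9) in 5.5 mM glucose, and HG+OE-FGF9 cells were kept in 50 mM glucose with an FGF9-overexpressing vector. The methods call this vector lentiviral and the results text adenoviral, and the results text describes the NG medium as one with mannitol. For HG no vector is named, and for si-FGF9 no control siRNA. The labels do not say whether replicates came from separate cultures, so that p-values measure only the spread between libraries, which may be technical.

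FGF9 was listed at 0 in the 9 libraries of NG, HG and si-FGF9 and at 3.34, 4.03 and 3.82 TPM in HG+OE-FGF9, so the knockdown could not be checked. Of 18 markers of renal and proximal tubule epithelium, 8 reached 1 TPM in all 12 libraries, among them PAX8, KRT18 and GGT1, while 6 (CDH1, ANPEP, LRP2, CUBN, SLC34A1 and SLC22A6) stayed below 1 TPM throughout. Of 9 markers of other cell types, CD68 and COL1A1 reached 1 TPM in all 12 libraries and 7 stayed below it. TPM values keep no record of depth, so the counting error behind each value is unknown. Between 11549 and 13949 genes reached 1 TPM per library.

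The spliceosome removes introns from pre-mRNA with the help of small RNAs that are held in protein particles called snRNPs. U1 pairs with the 5′ splice site and U2 with the branch point, U4 arrives paired with U6 and is released before the reaction, and U5 holds the exon ends. A rare class of introns is removed by the minor spliceosome, in which U11, U12, U4atac and U6atac take the places of U1, U2, U4 and U6. U7 serves the 3′ end of histone mRNAs, and 7SK, transcribed by RNA polymerase III, holds the elongation factor P-TEFb inactive. Most other snRNAs are made by RNA polymerase II, and none of these RNAs receives a poly(A) tail.

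The RNAs that carry the results are shown from the GENCODE release 29 transcripts of GRCh38, 5′ to 3′, with T written for U. In RNU1-1 (chr1:16514122-16514285, minus strand, 164 bases) the capitals mark the stretch that pairs with the 5′ splice site. In RNU2-1 (chr17:43233787-43233977, minus strand, 191 bases) they mark the stretch that recognises the branch point. In RNU4-2 (chr12:120291763-120291903, minus strand, 141 bases) and RNU12 (chr22:42615244-42615393, plus strand, 150 bases) they mark the Sm site, on which the ring of Sm proteins is built.
RNU1-1: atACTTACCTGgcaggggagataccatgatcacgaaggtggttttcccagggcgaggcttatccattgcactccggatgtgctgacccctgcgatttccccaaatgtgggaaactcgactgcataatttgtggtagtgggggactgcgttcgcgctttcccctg
RNU2-1: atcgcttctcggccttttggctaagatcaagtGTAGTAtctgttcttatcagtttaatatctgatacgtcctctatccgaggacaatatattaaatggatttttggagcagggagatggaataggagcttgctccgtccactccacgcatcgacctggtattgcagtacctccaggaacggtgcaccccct
RNU4-2: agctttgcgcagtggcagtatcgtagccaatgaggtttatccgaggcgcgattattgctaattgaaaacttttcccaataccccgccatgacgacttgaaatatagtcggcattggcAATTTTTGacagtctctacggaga
RNU12: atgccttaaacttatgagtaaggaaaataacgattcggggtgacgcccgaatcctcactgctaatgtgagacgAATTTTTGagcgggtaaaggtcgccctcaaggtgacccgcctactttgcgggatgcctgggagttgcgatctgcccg

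RNU6ATAC (chr9:134164439-134164564, minus strand, 126 bases) and RN7SK (chr6:52995621-52995948, plus strand, 328 bases) complete the classes with a member. No stretch of them is marked, and of RN7SK the first 300 bases are given.
RNU6ATAC: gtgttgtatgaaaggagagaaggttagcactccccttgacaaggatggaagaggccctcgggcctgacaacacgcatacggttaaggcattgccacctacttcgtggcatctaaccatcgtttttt
RN7SK: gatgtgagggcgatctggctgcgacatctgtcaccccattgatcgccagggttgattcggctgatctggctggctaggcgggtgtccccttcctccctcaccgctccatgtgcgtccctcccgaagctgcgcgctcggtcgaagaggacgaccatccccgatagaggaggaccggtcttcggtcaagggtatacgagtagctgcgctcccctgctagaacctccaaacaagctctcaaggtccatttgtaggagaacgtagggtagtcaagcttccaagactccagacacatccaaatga

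Summed over the 31 members, the snRNA level was 100.71, 165.85 and 238.17 TPM in NG, 60.45, 115.87 and 245.4 TPM in HG, and 270.63, 435.41 and 198.29 TPM in si-FGF9. In HG+OE-FGF9 the sum was 14124.7, 13890.3 and 4456.96 TPM. The lowest HG+OE-FGF9 library thus lay 10.2 times above the highest of the 9 other libraries, and within HG+OE-FGF9 replicate 3 held 31.6% of the sum of replicate 1. The NG, HG and si-FGF9 sums overlapped in part, with si-FGF9 replicates 1 and 2 above each NG and HG library. In RNA from a bulk culture, a change in the number of cells that hold an RNA and a change in its amount per cell cannot be told apart.

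**Figure D1:**
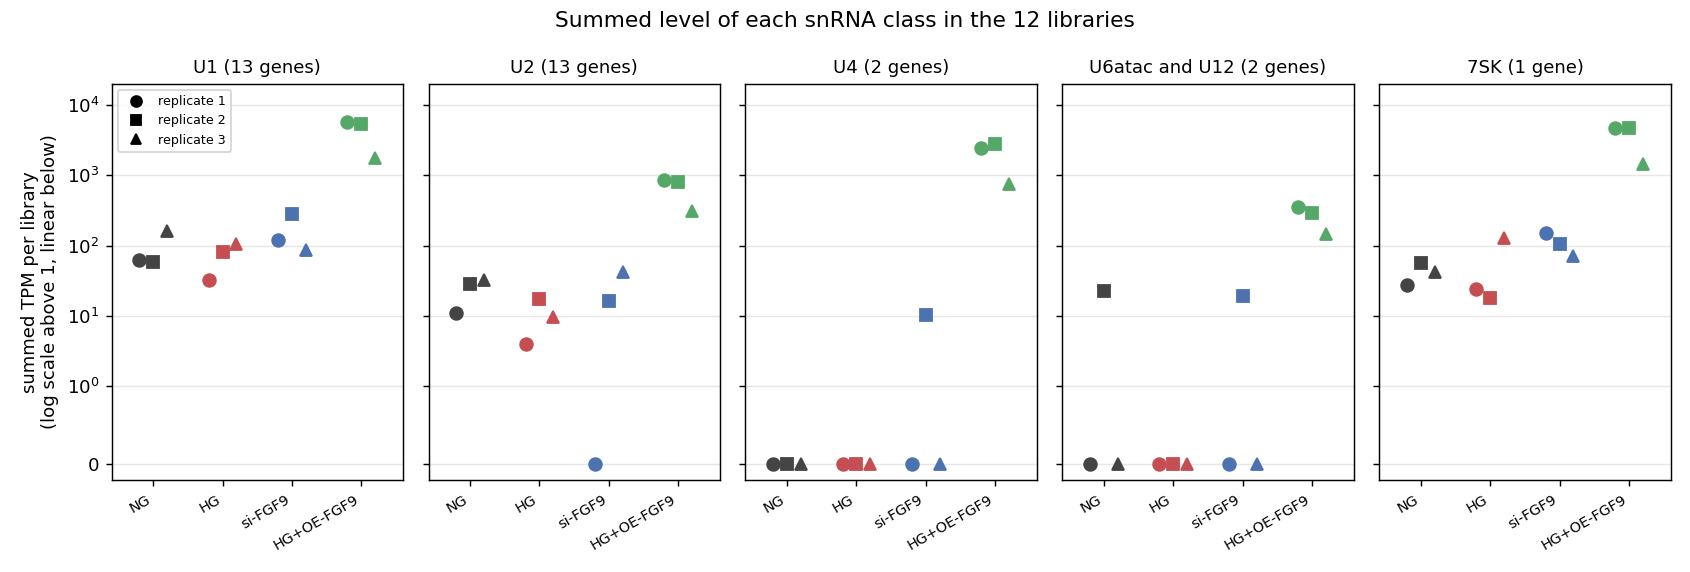
Summed TPM (vertical axis, log scale above 1 and linear below) of the U1, U2, U4, minor spliceosome and 7SK members in the libraries of each group, 1 point per library. In each panel the 3 HG+OE-FGF9 libraries lie above the 9 others, and their replicate 3 lies below replicates 1 and 2.

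Among the classes with a member, U1 had the largest summed TPM in 10 of the 12 libraries, and 7SK in HG replicate 3 and si-FGF9 replicate 1. Its sum was 62.54, 59.31 and 162.8 TPM in NG (94.9 ± 58.8, SD, n = 3), 32.43, 80.82 and 106.12 TPM in HG (73.1 ± 37.4), and 120.82, 283.02 and 85.33 TPM in si-FGF9 (163 ± 105). These 3 groups overlapped, with ratios of group means of 0.771 for HG to NG and 1.72 for si-FGF9 to NG, both within the spread of the replicates. In HG+OE-FGF9 the U1 sum was 5748.42, 5343.48 and 1781.58 TPM, and its mean was 58.7 times that of HG.

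The 3 U1 members with the largest mean level were RNU1-27P (chr14:34546714-34546877), RNU1-2 (chr1:16895980-16896143) and RNVU1-18 (chr1:143729407-143729570). RNU1-27P was listed at 0, 0 and 20.35 TPM in NG, 0.83, 0 and 22.08 TPM in HG, 0, 0 and 7.08 TPM under si-FGF9 and 358.67, 1751.33 and 111.7 TPM in the HG+OE-FGF9 libraries. RNU1-2 was listed at 0, 6.59 and 20.35 TPM in NG, 0.83, 14.92 and 0 TPM in HG, 0, 0 and 7.08 TPM under si-FGF9 and 991.98, 99.22 and 914.08 TPM in the HG+OE-FGF9 libraries. RNVU1-18 was listed at 7.01, 6.59 and 20.35 TPM in NG, 0.83, 0 and 0 TPM in HG, 16.96, 0 and 7.08 TPM under si-FGF9 and 1082.31, 696.85 and 27.77 TPM in the HG+OE-FGF9 libraries. For each of the 3 genes the HG+OE-FGF9 values lay above those of the other groups, but the order of the genes changed from library to library.

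These 3 genes are not separate measurements. The transcripts of 8 U1 members (RNU1-1, RNU1-2, RNU1-3, RNU1-4, RNU1-27P, RNU1-28P, RNVU1-18 and RNVU1-29) are identical over all 164 bases, so no read within them can tell one gene from another. In each of the 9 libraries outside HG+OE-FGF9, those of the 8 genes that were above 0 carried the same value to both decimals. For example, 5 genes stood at 7.01 TPM and 3 at 0 in NG replicate 1, 8 at 0.83 TPM in HG replicate 1, and 2 at 103.78 TPM and 6 at 0 in si-FGF9 replicate 2.

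In HG+OE-FGF9 the listed values were split unevenly. Replicate 1 had 8 different values from 124.16 to 1082.31 TPM, replicate 2 had 5 from 99.22 to 1751.33 TPM with 3 genes at 0, and replicate 3 had 4 from 27.77 to 914.08 TPM with 4 genes at 0. RNU1-1 itself stood at 746.62, 0 and 0 TPM. Summed over the 8 copies, the level was 5368.59, 4051.27 and 1550.51 TPM in these libraries and ranged from 6.64 to 207.56 TPM in the 9 others. Levels of single copies are therefore not interpreted, and class sums are used in their place.

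**Figure D2:**
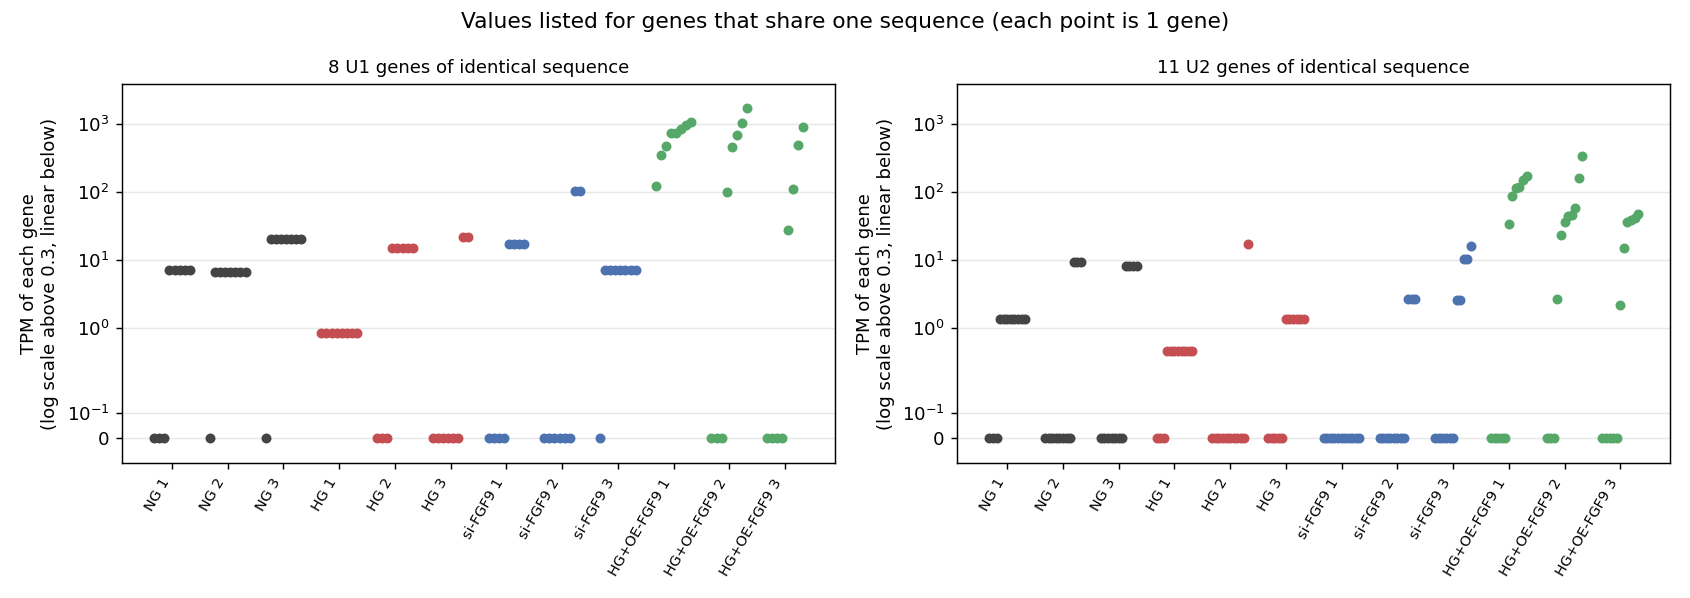
TPM (vertical axis, log scale above 0.3 and linear below) listed for each of 8 U1 genes and 11 U2 genes of identical sequence in each library, 1 point per gene, sorted within a library. Points above 0 form a level row in most libraries of NG, HG and si-FGF9 and a rising series in the HG+OE-FGF9 libraries, where U1 values reach 1751.33 TPM.

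Of the remaining U1 members, 4 differ in sequence or length. The other, ENSG00000275405 (scaffold KI270713.1), had no transcript sequence to compare. It was listed at 0, 6.59 and 20.35 TPM in NG, 0.83, 0 and 22.08 TPM in HG, 16.96, 0 and 0 TPM under si-FGF9 and 195.73, 1234.69 and 0 TPM in the HG+OE-FGF9 libraries, and where it was above 0 outside HG+OE-FGF9 its value equalled that of the identical copies. RNVU1-7 (chr1:148038753-148038916, minus strand) carries 1 substitution against RNU1-1, T150C (position counted from the 5′ end, the base of RNU1-1 first), which stands in capitals.
RNVU1-7: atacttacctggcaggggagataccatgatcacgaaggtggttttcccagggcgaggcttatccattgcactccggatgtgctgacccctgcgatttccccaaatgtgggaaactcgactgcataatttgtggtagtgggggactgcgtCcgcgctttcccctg

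RNVU1-7 was listed at 7.01, 6.59 and 0 TPM in NG, 0.83, 0 and 22.08 TPM in HG, 16.96, 0 and 7.08 TPM under si-FGF9 and 0, 0 and 128.05 TPM in the HG+OE-FGF9 libraries. In the NG, HG and si-FGF9 libraries where it was above 0, its value equalled that of the identical copies, and in HG+OE-FGF9 it stood apart from them. RNVU1-31, with 2 substitutions (A49T and C116T), was at 6.22 TPM in HG replicate 2, 36.9 in si-FGF9 replicate 2, 143.48, 35.07 and 90.55 in HG+OE-FGF9, and 0 in the others. RNVU1-15, 1 base longer than RNU1-1, was at 20.48 TPM in NG replicate 1, at 40.62 TPM in replicate 1 of HG+OE-FGF9, at 22.45 TPM in its replicate 2 and at 0 elsewhere.

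RNVU1-32 had 14 differences from RNU1-1, the most among the 11 U1 members of known sequence and equal length. It was listed at 0 in each NG library, at 24.13, 0 and 17.8 TPM in HG, 19.06, 38.56 and 28.69 TPM under si-FGF9 and 0, 0 and 12.47 TPM in the HG+OE-FGF9 libraries. The si-FGF9 values did not overlap those of NG, and this gene would have passed the inclusion rule without them. In si-FGF9 versus NG it passed the call used throughout, an unadjusted p under 0.01 in limma with a change of 1 or more on the log2 scale (adjusted p = 0.00237), and it was the 1 of 31 members to do so, against 47.6% of all genes tested (5.36% as higher and 42.2% as lower). In HG versus NG it did not pass the call, but its estimate was also higher, with a limma adjusted p of 0.0491. No fold is given for either comparison, since the NG libraries are listed at 0. The gene lies on the same strand within a long noncoding RNA gene that was at 34.95 to 36.13 TPM in NG and 35.87 to 40.55 TPM in si-FGF9, and reads of the host cannot be told apart from its own.

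The U2 class summed to 10.88, 28.32 and 32.68 TPM in NG, 4.05, 17.29 and 9.52 TPM in HG, and 0, 16.15 and 41.86 TPM under si-FGF9, 3 groups that overlapped. In HG+OE-FGF9 it summed to 849.58, 800.81 and 309.5 TPM, 63.5 times the HG mean, and its lowest library lay 7.39 times above the highest of the 9 others. The ratio was 23.4 when all U2 genes were summed, with RNU2-24P at 53.08 TPM in HG replicate 3, and 96.3 without HG replicate 2, and 7 of the 13 members passed the inclusion rule only through HG+OE-FGF9. Of the 13 members, 11 share 1 transcript sequence of 191 bases and lie in an array on chromosome 17, within the gene CCDC200 on the same strand, whose own level was between 0.27 and 2.13 TPM. RNU2-1, the copy after which the class is named, stood at 0 in the 3 HG+OE-FGF9 libraries, while 6 to 8 of the 11 copies were above 0 there, at 2.15 to 338.07 TPM. The copies above 0 held the same value in each of the 9 other libraries except si-FGF9 replicate 1, where all 11 were at 0, and si-FGF9 replicate 3, where 5 copies took 3 values between 2.59 and 16.28 TPM.

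The largest mean levels among U2 members belonged to ENSG00000275219 and ENSG00000274862, both of the array, and to RNU2-2P. ENSG00000275219 (chr17:43296425-43296615) was at 0.45 and 1.36 TPM in HG replicates 1 and 3, at 86.81, 338.07 and 36.67 in HG+OE-FGF9, and at 0 in the others. ENSG00000274862 (chr17:43277978-43278168) was at 0.45 and 17.29 TPM in HG replicates 1 and 2, 16.28 in si-FGF9 replicate 3, 150.29, 161 and 0 in HG+OE-FGF9, and 0 in the others.

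RNU2-2P (chr11:62841619-62841809, minus strand) is a U2 gene on another chromosome whose transcript differs from RNU2-1 at 8 positions (G108A, C109A, A110T, G111A, C170T, C187T, C189T and T191C), shown in capitals, so that its reads can in part be told from those of the array.
RNU2-2P: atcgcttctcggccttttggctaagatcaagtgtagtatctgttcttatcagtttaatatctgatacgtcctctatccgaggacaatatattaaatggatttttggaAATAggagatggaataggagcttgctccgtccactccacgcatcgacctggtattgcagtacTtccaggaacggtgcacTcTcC

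RNU2-2P was at 8.08 TPM in si-FGF9 replicate 2, at 110.83, 91.98 and 64.21 in HG+OE-FGF9, and at 0 in the 8 others. It was thus above 0 in each HG+OE-FGF9 library, unlike most single copies of the array. It overlaps the protein-coding gene WDR74 on the same strand, which was at 58.38, 60.76 and 43.73 TPM in HG+OE-FGF9 and at 14.66 to 41.23 TPM in the 9 others. WDR74 did not pass the call in HG+OE-FGF9 versus HG (log2 fold change of 0.91 ± 0.33 SE, limma adjusted p = 0.102), and the part of its reads in the RNU2-2P values was not tested.

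Both U4 members passed the inclusion rule only through HG+OE-FGF9, so the rule itself made them differ and their levels are a description. RNU4-2 was at 10.37 TPM in si-FGF9 replicate 2, at 1970.61, 1976.87 and 516.09 in HG+OE-FGF9, and at 0 in the 8 others. RNU4-1 (chr12:120293097-120293237, minus strand) was at 439.86, 805.39 and 243.71 TPM in HG+OE-FGF9 and at 0 in the 9 others. Both lie on chromosome 12 and are 141 bases long, with 4 substitutions between them (T37C, A88G, A99C and T113C, the base of RNU4-2 first), which stand in capitals in RNU4-1.
RNU4-1: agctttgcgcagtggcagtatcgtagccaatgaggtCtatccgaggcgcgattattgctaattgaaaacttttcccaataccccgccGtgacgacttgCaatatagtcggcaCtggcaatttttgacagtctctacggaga

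RNU4-2 exceeded RNU4-1 in each HG+OE-FGF9 library. The lowest U4 sum of that group, 759.8 TPM, lay 73.3 times above the highest of the 9 others. That ratio rests on the single entry of 10.37 TPM in si-FGF9 replicate 2, as the rest of the 9 were at 0. Since both HG and NG stood at 0 for the U4 genes, no fold against them is given.

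The minor spliceosome was represented by RNU6ATAC and RNU12, which both passed the inclusion rule only through HG+OE-FGF9. RNU6ATAC, the counterpart of U6, was at 19.33 TPM in si-FGF9 replicate 2, at 305.64, 255.09 and 122.88 in HG+OE-FGF9, and at 0 in the 8 others. RNU12, the counterpart of U2, was at 22.63 TPM in NG replicate 2, at 51.43, 35.31 and 21.33 in HG+OE-FGF9, and at 0 in the 8 others. The RNU12 level of NG replicate 2 lay above that of HG+OE-FGF9 replicate 3, so these groups overlapped. RNU4ATAC was above 0 only in HG replicate 2, at 62.61 TPM, and RNU11, of 134 bases, was listed at 0 in the 12 libraries.

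7SK was the member measured at 1 TPM or more in each of the 12 libraries, so the inclusion rule did not fix its differences between groups. RN7SK was at 27.29, 55.59 and 42.69 TPM in NG (41.9 ± 14.2), 23.97, 17.76 and 129.76 TPM in HG (57.2 ± 62.9), 149.81, 106.54 and 71.1 TPM under si-FGF9 (109 ± 39.4) and 4759.13, 4673.4 and 1461.87 TPM in the HG+OE-FGF9 libraries (3631 ± 1879, each SD, n = 3). HG overlapped NG, with HG replicate 3 above and replicates 1 and 2 below each NG library. The si-FGF9 libraries lay above each NG library without overlap, and the HG+OE-FGF9 libraries lay above all the others.

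In limma, RN7SK rose in HG+OE-FGF9 versus HG by 6.34 ± 0.66 on the log2(TPM + 1) scale (SE, adjusted p = 0.00029), and the change stayed between 5.80 and 7.20 when any 1 library was left out. It did not pass the call in si-FGF9 versus NG (1.35 ± 0.66, adjusted p = 0.0848), where it passed with scaling by the median of ratios (2.37, adjusted p = 0.00871) and with only the 6 libraries of the comparison (adjusted p = 0.00911). In HG versus NG the estimate was -0.06 ± 0.66 (adjusted p = 0.948). A second annotated 7SK locus, RF00100, overlaps RN7SK on the same strand and was at 87.3, 89.94 and 28.37 TPM in HG+OE-FGF9 and at 0 in the 9 others, and where they overlap their reads cannot be told apart.

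Counted by gene, 13 of the 31 members passed the call as higher in HG+OE-FGF9 relative to HG and 0 as lower, where 5.61% of the 14639 genes tested passed in either direction, 2.94% as higher and 2.67% as lower. Of these 13, 8 reached 1 TPM in 3 libraries only through the HG+OE-FGF9 libraries, as did 5 members that were not called, so these calls are not independent of the inclusion rule. The other 5 were RNU1-27P, RNVU1-18, RNU1-2, the U2 copy ENSG00000276596 and RN7SK, of which the first 4 share their sequence with other copies. Among the 8, the U2 copies ENSG00000275219 and ENSG00000274062 do so too. RNU1-1, of the same sequence as the U1 genes named here, changed by 0.05 ± 2.22 (log2, SE) and was not called. The 13 are therefore not a count of separate RNAs. In HG versus NG, 0 of 31 members passed the limma call and 2 had an unadjusted p under 0.05, beside 24.4% of all genes tested that passed (1.65% as higher and 22.7% as lower). Both comparisons use the same HG libraries, and HG versus NG shares the NG libraries with si-FGF9 versus NG.

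Within HG+OE-FGF9 the makeup of the snRNA sum varied little between replicates, although the sum itself fell to 31.6% in replicate 3. U1 took 38.5 to 40.7% of it, 7SK 32.8 to 33.7%, U4 17.0 to 20.03%, U2 5.77 to 6.94% and the minor members 2.09 to 3.24%. In the 9 other libraries U1 took 35.8 to 69.8% and 7SK 15.3 to 55.4%, wider ranges at levels at which many copies were listed at 0. Between 20 and 24 of the 31 members were above 0 per HG+OE-FGF9 library, against 8 to 21 per library in the other groups. Replicates 1 and 2 of HG+OE-FGF9 lay close together and apart from replicate 3, with median of ratios of 0.869, 0.869 and 1.10. Against HG, 821 of all genes tested were called, and 565, 549 and 1617 without replicates 1, 2 and 3. The labels do not say whether replicates 1 and 2 were separate cultures, so tests with this group may not rest on 3 equal replicates.

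The absence of U5, U6 and U7 members went with transcript length. The shortest snRNA gene above 0 in any library had 120 bases, and 1536 of the 1900 snRNA genes with a known length were shorter. RNU6-1, RNU6-2, RNU6-7, RNU6-8 and RNU6-9 have 107 bases, RNU5A-1, RNU5B-1 and RNU5D-1 have 116, RNU5F-1 has 117 and RNU7-1 has 63, and each was listed at 0 in the 12 libraries. RNU5E-1, with 120 bases, was at 122.87 TPM in HG+OE-FGF9 replicate 3 and at 0 in the others. A like limit held over all genes, snRNA genes included: of 58225 genes with a length, 5476 were shorter than 119 bases and none of them was above 0. An entry of 0 for U5, U6 or U7 therefore does not show that the RNA was absent from the cells.

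**Figure D3:**
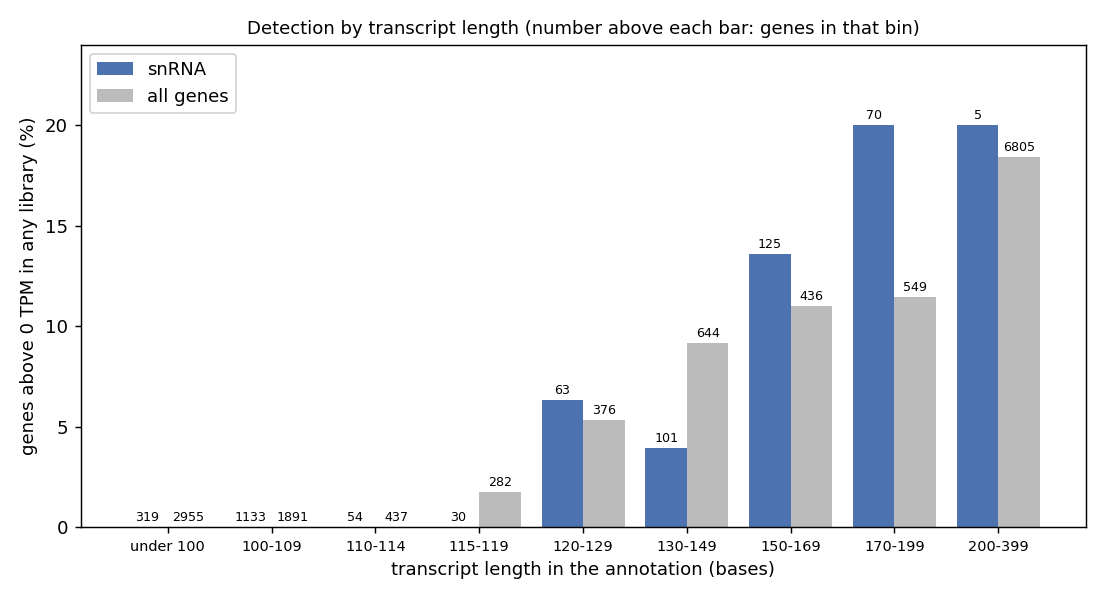
Share of genes above 0 TPM in at least 1 of the 12 libraries (vertical axis, percent) by annotated transcript length (horizontal axis, bases) for snRNA genes and for all genes, with the number of genes above each bar. No snRNA bar rises above 0 under 120 bases, and 13.6% of the 125 snRNA genes of 150 to 169 bases were above 0.

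Just inside the threshold, the U2 copies ENSG00000277903 and ENSG00000274452 each had 1.36 TPM as the lowest of their 3 highest values, followed by ENSG00000278048 and ENSG00000275616 at 2.59 TPM. Outside it lay 10 genes that were above 0 in 1 library each, with a highest value between 6.26 TPM (RNU2-63P) and 122.87 TPM (RNU5E-1).

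Other short RNAs without a poly(A) tail were also higher in HG+OE-FGF9. RMRP, the RNA of an RNase that cuts mitochondrial primers and pre-rRNA, was at 77.71, 79.98 and 39.27 TPM there and at 2.14 to 14.99 TPM in the 9 others, and rose by 3.28 ± 0.53 (log2, SE) over HG (limma adjusted p = 0.00351). RPPH1, the RNA of RNase P, which trims tRNA precursors, was at 70.52, 58.79 and 18.16 TPM against 0 to 8.11 TPM and rose by 3.81 ± 0.72 (adjusted p = 0.00819). RN7SL1 and RN7SL2, the RNAs of the signal recognition particle, were at 144.16 to 391.73 TPM and 124.44 to 286.91 TPM, against at most 48.05 and 41.47 TPM elsewhere, and rose by 3.07 ± 0.42 (adjusted p = 0.00135) and 3.04 ± 0.63 (adjusted p = 0.0124).

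The summed snoRNA genes, which guide the modification of rRNA, were at 1874.77, 2268.82 and 616.98 TPM in HG+OE-FGF9 and at 92.53 to 526.7 TPM in the 9 others. The summed scaRNA genes, which guide the modification of snRNAs, were at 536.06, 455.98 and 72.35 TPM against 0 to 57.05 TPM. Replication-dependent histone genes, whose mRNAs end in a stem-loop in place of a poly(A) tail, did not share this pattern, at 644.63, 633.17 and 415.44 TPM in HG+OE-FGF9 against 329.99 to 1278.16 TPM in the 9 others. Replicate 3 of HG+OE-FGF9 was the lowest of its group for each of these RNAs, at 13.5 to 64.4% of replicate 1. Genes of the biotypes snRNA, snoRNA, scaRNA and misc_RNA together took 1.79, 1.79 and 0.573% of the TPM in HG+OE-FGF9 and 0.032 to 0.097% elsewhere. How RNA was selected for the libraries is not given in the sources used here, and its part in the snRNA values was not tested.

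**Figure D4:**
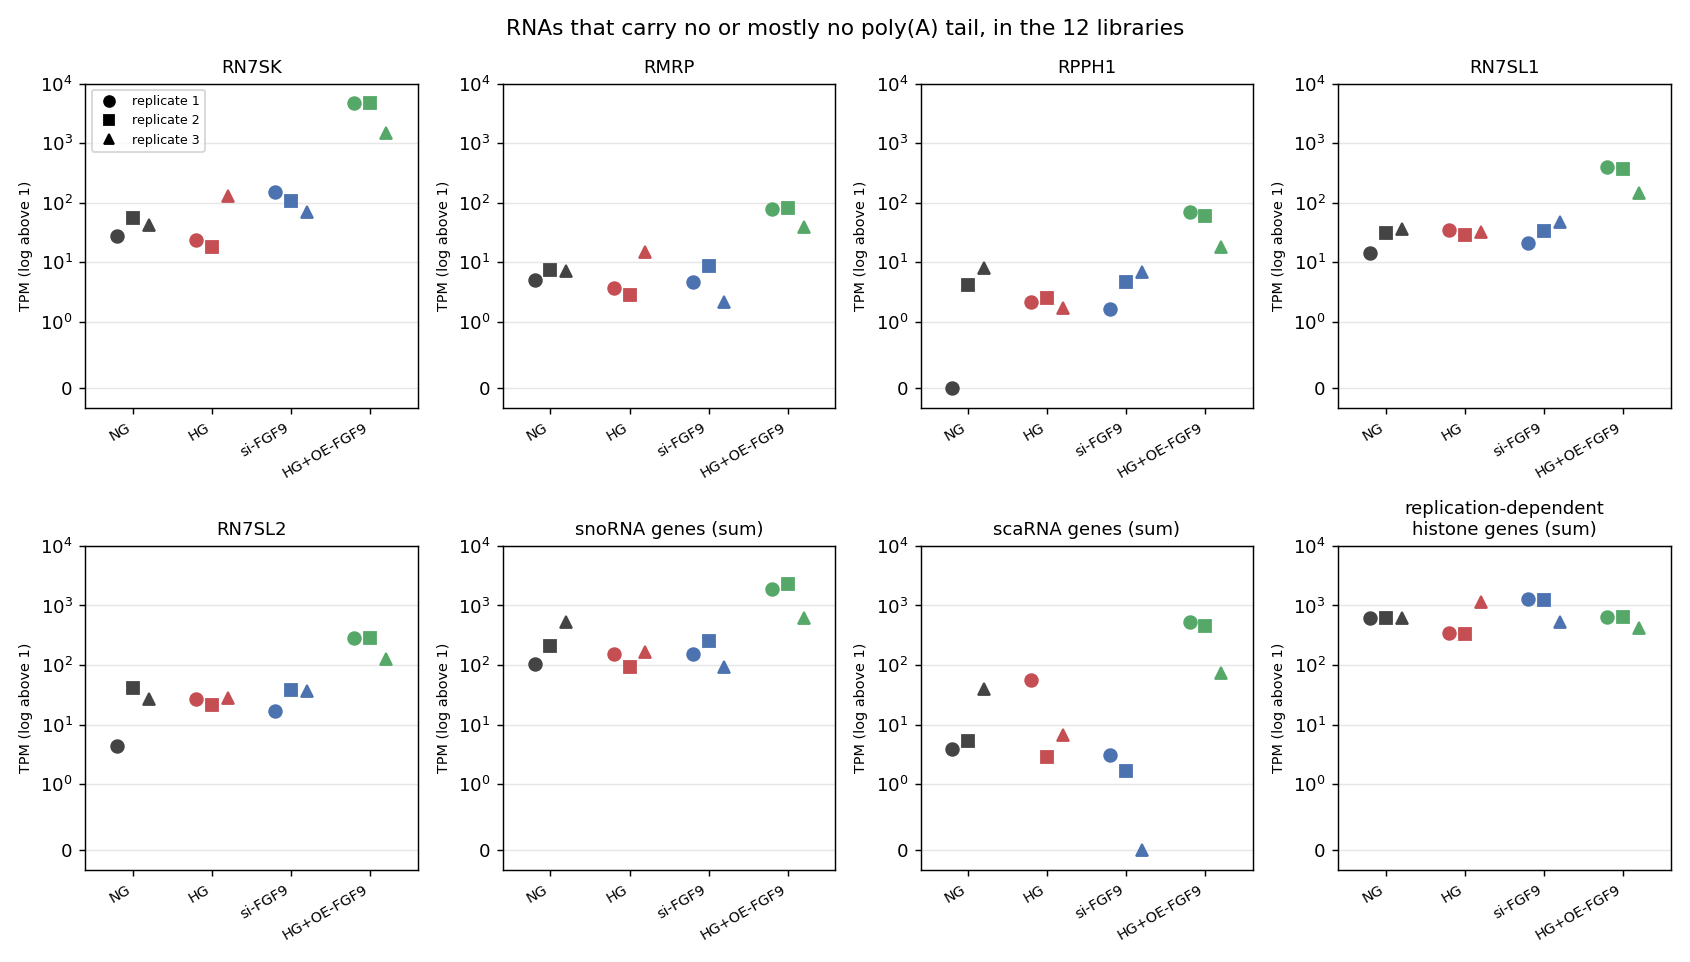
TPM (vertical axes, log scale above 1 and linear below) of RN7SK, RMRP, RPPH1, RN7SL1 and RN7SL2 and the sums over snoRNA, scaRNA and replication-dependent histone genes in each library, 1 point per library. The HG+OE-FGF9 libraries lie above the 9 others in each panel except the histone genes, where they lie within the range of the others.

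The mRNAs of the proteins that build, modify and hold snRNAs were examined in a list of 120 genes, all of which were tested. In HG+OE-FGF9 versus HG, where the snRNA sums differed most, 1 of the 120 rose and 0 fell (limma, with 4 genes at an adjusted p under 0.05), 0.833% against 5.61% of all genes tested, and the median log2 change was -0.08 against -0.13 over all genes tested. The gene that rose was ZMAT5, which encodes a protein of the U11/U12 particle. It was at 10.64, 14.37 and 5.44 TPM in HG and 29.35, 28.58 and 17.55 TPM in HG+OE-FGF9, groups that did not overlap (1.28 ± 0.30 SE, adjusted p = 0.0204). Without HG replicate 3 this change was 0.93 and did not pass, and the 1 gene of the list then called was lower. The count for the list was 6, with 1 higher and 5 lower, without HG replicate 2, and 5, with 1 higher and 4 lower, without HG+OE-FGF9 replicate 3.

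LSM4 (0.69 ± 0.11, adjusted p = 0.00391) and LSM5 (0.54 ± 0.13, adjusted p = 0.0266) of the ring on U6, and SF3B5 of U2 (0.60 ± 0.17, adjusted p = 0.045), were the other 3 genes at an adjusted p under 0.05, named after their values were seen, and each changed by less than the fold the call asks for. The first gene of each subgroup did not pass in that comparison. SNRPB, which encodes a protein of the Sm ring, was at 435.4, 500.48 and 287.52 TPM in HG and 549.17, 550.87 and 558.07 TPM in HG+OE-FGF9, without overlap, but its change of 0.48 ± 0.19 did not pass. SNRNP70 of U1 (-0.12 ± 0.15), SNRPA1 of U2 (0.43 ± 0.21), PRPF3 of U4/U6 (0.10 ± 0.16) and PRPF8, the scaffold of U5 (-0.09 ± 0.13), did not pass either. Outside the particles, the estimates were -0.35 ± 0.44 for SNAPC1, of the factor that starts snRNA transcription, -0.09 ± 0.24 for INTS1 of Integrator, which cuts nascent snRNA, and -0.27 ± 0.31 for SMN1 of the complex that loads Sm proteins. SMN1 shares most of its sequence with SMN2, so its level is uncertain. NCBP1 of the cap-binding complex (-0.05 ± 0.24), TOE1, which trims snRNA 3′ ends (0.12 ± 0.25), and COIL, the coilin of Cajal bodies (-0.49 ± 0.23), did not pass.

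In HG versus NG 2 of the 120 genes rose and 20 fell, 18.3% in all against 24.4% of all genes tested, with a median log2 change of -0.27 against -0.39. SART1, of the tri-snRNP that joins U5 with U4 and U6, was at 22.97, 23.62 and 16.45 TPM in NG and 52.5, 75.67 and 40.12 TPM in HG (1.35 ± 0.23, adjusted p = 0.0013), and SNRNP25 of the minor U11/U12 particle rose by 1.34 ± 0.26 (adjusted p = 0.00196). SNAPC1 was at 224.79, 174.47 and 153.81 TPM in NG and 38.14, 20.73 and 92.89 TPM in HG (-2.09 ± 0.44, adjusted p = 0.00293), and the export receptor XPO1 fell by 1.72 ± 0.29 on the log2 scale (adjusted p = 0.00133). By subgroup, 5 of 11 transcription genes and 5 of 7 cap, export and import genes were called lower, where 22.7% of all genes tested were, and none of 7 Sm, 12 U2 and 13 U4/U6 and LSM genes was called. RNPC3, which encodes a protein of the minor U11/U12 particle, also fell (-1.22 ± 0.21, adjusted p = 0.00133), and did not pass with the median of ratios or after correction for GC content.

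The direction of these counts depended on the scaling. With the median of ratios, which moved the median of all genes in HG versus NG from -0.39 to 0.00, 13 genes of the list were higher and 6 lower (10.8% and 5.00%, against 7.26% and 8.47% of all genes), and after correction for GC content 7 were higher and 0 lower (5.83% and 0%, against 3.78% and 3.06%). SNAPC1 and XPO1 were no longer called after the GC correction, at -0.97 and -0.61, while SART1 and SNRNP25 were called under each alternative. Without HG replicate 3 the count was 37, with 9 higher and 28 lower.

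In si-FGF9 versus NG 6 of the 120 genes rose and 52 fell, 48.3% in all against the 47.6% of all genes tested, with a median of -0.69 against -0.79. SART1 was at 101.75, 86.24 and 119.07 TPM in si-FGF9 (2.24 ± 0.23, adjusted p = 1.09e-05) and ZMAT5 rose by 1.496 ± 0.298 (adjusted p = 0.000719). SF3B1, the U2 protein that clamps the branch point, was at 138.3, 115.6 and 101.29 TPM in NG and 11.14, 12.9 and 10.23 TPM in si-FGF9 (-3.26 ± 0.43, adjusted p = 3.84e-05), and SNAPC1 was at 23.66, 23.05 and 18.99 TPM (-3.01 ± 0.44, adjusted p = 7.84e-05). Where 42.2% of all genes tested were called lower, so were 6 of 7 cap, export and import genes, 7 of 12 U2 genes, 5 of 9 minor, 5 of 9 maturation and decay genes, 6 of 11 transcription genes, 6 of 12 SMN complex genes, 7 of 14 Integrator genes, 4 of 9 Cajal body genes, 3 of 13 U4/U6 and LSM genes, 2 of 11 U5 genes, 1 of 6 U1 genes and 0 of 7 Sm genes. The si-FGF9 libraries also differed from NG as a whole, with 11549 to 12013 genes at 1 TPM or more against 13795 to 13949, and with 49385 to 85968 TPM in mitochondrially encoded genes against 134911 to 144316 TPM, and the part of these differences in the counts was not tested. With the median of ratios, which moved the median of all genes from -0.79 to -0.01, 33 genes were higher and 17 lower (27.5% and 14.2%, against 18.9% and 17.8% of all genes), and after the GC correction 18 were higher and 9 lower (15.0% and 7.50%, against 12.3% and 11.99%). SART1, ZMAT5, SF3B1 and SNAPC1 kept their direction and their call under each alternative.

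LARP7 and MEPCE, proteins that bind and cap 7SK, were chosen from the list after their values were seen. LARP7 was at 42.98, 36.46 and 33.83 TPM in NG, 18.27, 7.02 and 17.21 TPM in HG, 7.44, 8.72 and 3.64 TPM under si-FGF9 and 4.37, 3.51 and 10.73 TPM in the HG+OE-FGF9 libraries. It was called lower in HG versus NG (-1.45 ± 0.41, adjusted p = 0.0129) and in si-FGF9 versus NG (-2.41 ± 0.41, with an adjusted p of 0.000249). It did not pass against HG in the HG+OE-FGF9 libraries, where RN7SK rose (-1.10 ± 0.41, adjusted p = 0.111). MEPCE was at 13, 13.8 and 14.82 TPM in NG, 37.11, 41.3 and 10.99 TPM in HG, 8.96, 8.59 and 15.59 TPM under si-FGF9 and 39.39, 41.09 and 31.26 TPM in the HG+OE-FGF9 libraries, and passed in none of the 3 comparisons. These changes of LARP7 were not recomputed under other scalings.

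**Figure D5:**
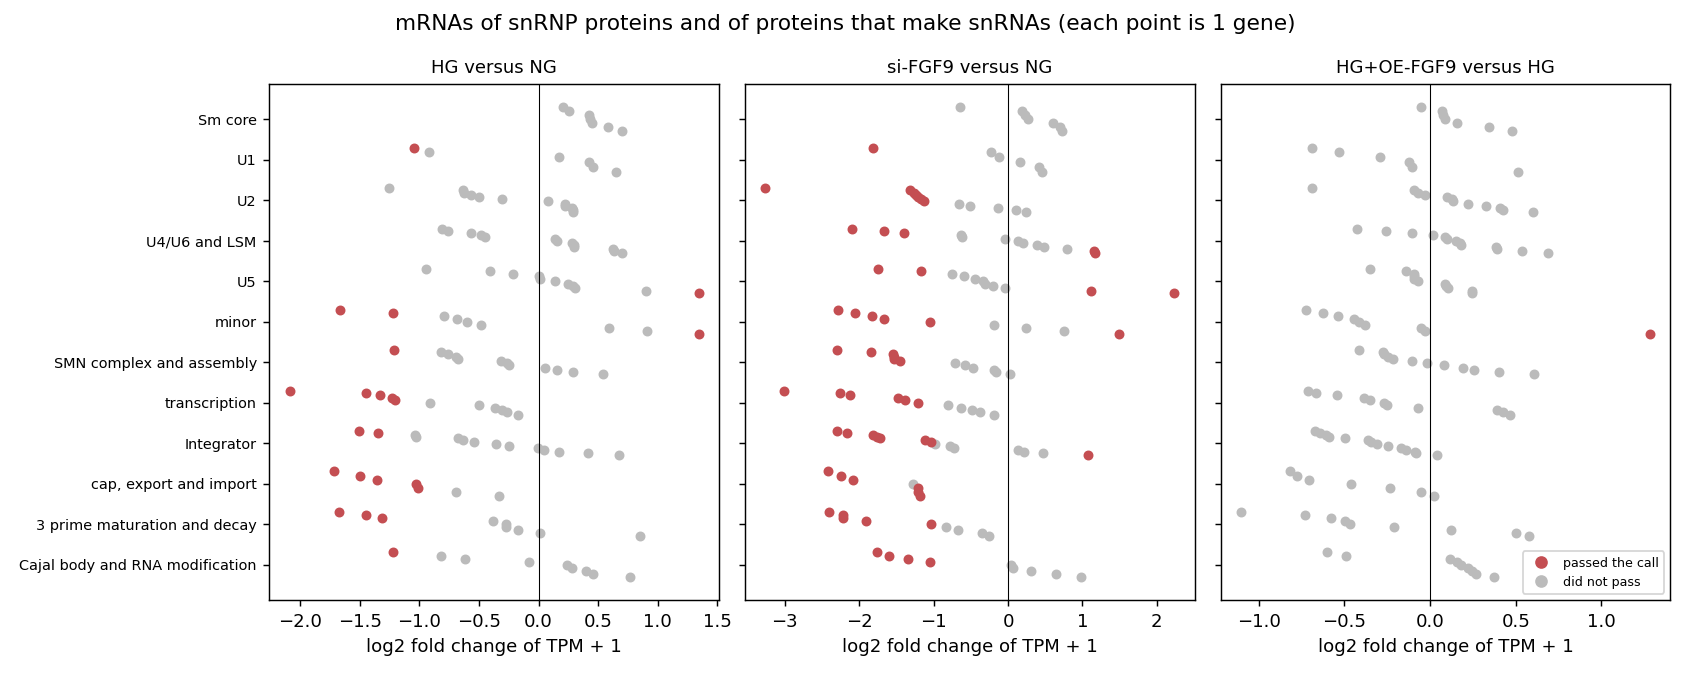
Log2 fold change of TPM + 1 (horizontal axis) of each of the 120 snRNP protein and snRNA biogenesis genes, by subgroup (vertical axis), in 3 panels for the 3 comparisons, with genes that passed the call in red and the others in grey. ZMAT5 is the 1 red point in HG+OE-FGF9 versus HG, whereas 58 points are red in si-FGF9 versus NG, where the direction of the list's counts depended on the scaling.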

How the data were processed

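TPM values of 12 HK2 libraries were deposited by the authors for 62703 Ensembl gene identifiers, to 2 decimals and scaled to a sum of 1000000 per library. The submitters' processing notes name Bowtie 0.12.2 and the build mm8 without saying for which step. The identifiers are human, and the aligner, quantification tool, build and annotation of the TPM are not given in the sources used here, nor is the depth or the selection of RNA. Precision was judged from the spread of 3 libraries per group.

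Biotypes, lengths, coordinates and transcripts were taken from GENCODE release 29 on GRCh38, which matched 58279 identifiers. Genes at 1 TPM or more in at least 3 libraries (14639) were tested with limma 3.58.1 (R 4.3.3) after a log2(TPM + 1) transformation, with a variance trend and the group as the only term over all 12 libraries, and p-values were adjusted by Benjamini-Hochberg over these genes. The call was an unadjusted p under 0.01 and a change of 1 or more on the log2 scale. The fit was checked on simulated data for HG versus NG, with changes placed only in genes of higher mean level. Recovery of changes in members mostly listed at 0 was not checked. Exact permutation tests of 3 against 3 libraries cannot give a two-sided p under 0.1 and were not used.

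The genes named are, in each class, up to 3 members with the largest mean TPM, each minor member, those nearest the threshold, the first gene of each snRNP subgroup and the 2 called genes with the largest change in each direction. Other members named for their sequence or pattern, and LARP7 and MEPCE, were chosen after their values were seen. The members and lists were chosen with earlier results of these data known. Alternatives were other pseudocounts, filters, scalings, GC corrections, a replicate block and leaving out each library. Replicate numbers did not pair the samples: same-numbered libraries of different groups deviated together with correlations of -0.439 to 0.248 over 18 pairs. Differently numbered libraries of different groups gave -0.337 to 0.463 over 36 pairs.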

Additional observations from a re-analysis of the deposited data

How the results depend on the processing

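Across 23 alternatives for each count, the number of snRNA members called in HG+OE-FGF9 versus HG was 12 to 19 with 1 library left out. Of the 13 called in the main fit, 8 passed the inclusion rule only through HG+OE-FGF9, so this range is no check on them. Without HG replicate 2, 12 members were called higher and 1 lower. When genes had to pass the filter in the 9 other libraries, which takes those 8 out, the number of members called was 5 of 18. In HG versus NG it was 0, and became 1 with a pseudocount of 0.1 or an adjusted p under 0.05, 2 with only the 6 libraries, and 0 to 2 with 1 library left out. In si-FGF9 versus NG it was 1, and became 2 with only the 6 libraries, the median of ratios, the GC correction or the GC correction with the replicate block, and 1 to 2 with 1 library left out. For the snRNP and biogenesis list, the count in HG versus NG was 7 with the GC correction, alone or with the replicate block, and 15 to 37 with 1 library left out. In si-FGF9 versus NG it was 27 with the GC correction and 26 with the replicate block added, and 52 to 59 with 1 library left out, and in HG+OE-FGF9 versus HG it was 1 to 6 with 1 library left out. The cause of these shifts was not tested. SNRPA1 and NCBP1, called lower in si-FGF9 versus NG, turned to 0.32 and 0.24 on the log2 scale with the GC correction, alone or with the replicate block. Of the other changes of single genes under an alternative, 30 lost and 16 gained the call and 1192 did neither. Ratios of class sums moved by more than the replicate spread for U2 in HG versus NG (0.429, and 1.17 over all U2 genes), for U1 and 7SK in si-FGF9 versus NG (3.43 and 5.30 with the median of ratios), and for 7SK in HG+OE-FGF9 versus HG (47.2 to 174 with 1 library left out, the highest without HG replicate 3). The ratio of U1 between HG and NG ran from 0.597 to 1.20 and of 7SK from 0.499 to 1.84 with 1 library left out, so their direction depended on single libraries. The replicate block alone left 0, 1 and 13 members called and gave 22, 57 and 1 genes of the list in the 3 comparisons. Replicate numbers did not pair the samples, and the median correlation of same-numbered libraries was -0.0585. Depth is unknown, so no limit could be set for genes listed at 0.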

Other observations

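Of the 1909 snRNA genes, 10 were above 0 TPM but did not enter the comparisons, each in 1 library only. RNU1-5P stood at 27.39 TPM in NG replicate 2, RNVU1-25 at 15.24 and RNVU1-30 at 13.57 in NG replicate 3, RNU1-39P at 6.74 in HG replicate 1, RNU4ATAC18P at 21.67 in HG replicate 2, RNU2-24P at 53.08 in HG replicate 3, RNU1-14P at 14.88 in HG+OE-FGF9 replicate 2 and RNU2-63P at 6.26 in HG+OE-FGF9 replicate 3, beside RNU4ATAC and RNU5E-1. Of the 10, 3 were found in a HG+OE-FGF9 library. A gene at 1 TPM or more in all 3 libraries of that group would have been a member, so this count does not describe the group. HG replicate 2 held 62.61 TPM of RNU4ATAC and 21.67 TPM of its copy RNU4ATAC18P, while RNU6ATAC, RNU12 and RNU11 were at 0 there.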
